A study of Rattus norvegicus with 4 samples.

Results

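The Wnt set consisted of 55 genes of Wnt signaling, from the secreted ligands to the nuclear factors, measured by RNA-seq in the prefrontal cortex of newborn rats. Members were taken by name. They were the transcripts with an NCBI Gene ID whose symbol belonged to the Wnt, Fzd, Sfrp, Dkk or Rspo families, or was among a given list of co-receptors, antagonists, secretion factors and intracellular components. The 55 members stood among 17419 transcripts listed in the files, of which 14008 had a Gene ID. By role, 15 were ligands, 2 acted in ligand secretion, 3 were R-spondin agonists, 13 were receptors or co-receptors, 12 were secreted antagonists, 7 were intracellular components and 3 were nuclear factors.

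Rat dams received bisphenol A (BPA) or the vehicle of ethanol in corn oil by oral gavage each day from gestational day 1 until birth. BPA, a compound present in polycarbonate plastics and epoxy resins, with estrogen-like activity, was given at 5000 µg/kg maternal body weight. The study asked how this exposure changes the transcriptome of the offspring in each sex. There were 4 libraries of polyadenylated RNA from frontal cortex, 1 for each combination of sex and treatment, named by treatment and then sex (the BPA male library, for example). All animals were of the Wistar strain according to the labels (Wistar Furth in the methods of the study) at postnatal day 1 in the labels and 1 to 2 in the methods, no allele or further treatment is named for any group, and all pups were anesthetized with sodium pentobarbital before the brain was taken. According to the methods, 3 pups of each sex and treatment, out of 6 litters, were used, and whether a library pooled them is not stated. With 1 library against 1 within a sex there was no replicate check, and each such comparison compared those libraries, not the conditions. The libraries of the sexes served as the replicates of a treatment when the sexes were combined, so their spread included sex.

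Wnt proteins are lipid-modified by Porcn, carried to the cell surface by Wls and bound there by Frizzled receptors together with the co-receptors Lrp5 and Lrp6. In the canonical branch, this frees beta-catenin (Ctnnb1) from a destruction complex built on Apc and Axin, and beta-catenin then enters the nucleus and works with the Tcf and Lef factors. Secreted antagonists of the Sfrp, Dkk and Wif families block ligand or co-receptor, while R-spondins, through the Lgr receptors, raise the amount of Frizzled at the surface. In the forming forebrain the pathway is known for patterning the dorsal cortex, for the growth of brain vessels and for signals from the meninges.

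Values were the authors' FPKM, fragments scaled to transcript length and sequencing depth, so levels are per length. The depth came to between 8931000 and 9238000 fragments per library, recovered from the steps of low FPKM, and 1 fragment on a transcript of 3 kb was worth between 0.0368 and 0.0381 FPKM. The ranges given after a fold are exact 95% intervals (Clopper-Pearson) from these estimated fragments and cover counting error only. Markers of cortical excitatory neurons were plentiful in every library (Neurod6 between 215.6 and 255.3 FPKM), as the tissue label implies. Of the 55 members, 54 were listed in all 4 libraries, and Wnt10a only in the female ones, at 0.05 FPKM in both. With a filter at a mean of 1 FPKM, 34 members were tested.

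The promoters of 3 members are shown for the sequence context of the results below. Frzb and Wls had the lowest adjusted p of all members, and Axin2 is the classical transcriptional target of beta-catenin. Sequences are from RefSeq on GRCr8, 250 bases before to 50 after the transcription start, 5′ to 3′ on the strand of the gene. The deposited values were made on Rnor_6.0 and hold no coordinates, so the genes were matched by symbol. Capitals mark the Tcf/Lef core CTTTGAT, which was searched on both strands (ATCAAAG on the other), the only motif searched.
Frzb, chr3:85772047-85772346, minus strand: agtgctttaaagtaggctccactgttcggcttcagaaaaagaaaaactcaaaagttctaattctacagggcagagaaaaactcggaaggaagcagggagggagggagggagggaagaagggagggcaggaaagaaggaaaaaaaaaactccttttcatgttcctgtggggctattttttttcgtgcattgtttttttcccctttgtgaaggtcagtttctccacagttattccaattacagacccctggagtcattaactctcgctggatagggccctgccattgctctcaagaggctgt
Wls, chr2:251590403-251590702, plus strand: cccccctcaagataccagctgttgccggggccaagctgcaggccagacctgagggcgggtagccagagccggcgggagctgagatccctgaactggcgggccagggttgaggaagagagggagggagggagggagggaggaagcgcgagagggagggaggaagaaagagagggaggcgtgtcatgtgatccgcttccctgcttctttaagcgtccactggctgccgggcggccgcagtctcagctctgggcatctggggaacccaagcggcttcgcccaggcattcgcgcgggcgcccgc
Axin2, chr10:94398535-94398834, plus strand: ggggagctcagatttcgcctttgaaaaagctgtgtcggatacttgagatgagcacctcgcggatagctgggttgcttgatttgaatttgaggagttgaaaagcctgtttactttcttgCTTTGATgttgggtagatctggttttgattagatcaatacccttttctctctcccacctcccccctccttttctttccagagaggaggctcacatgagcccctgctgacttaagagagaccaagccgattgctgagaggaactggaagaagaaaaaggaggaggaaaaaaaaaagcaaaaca
The core stood 132 bases before the start of Axin2 and in neither of the other windows shown. It was found in 2 of 39 windows of members (5.13%), those of Axin2 and Dkkl1, and in 1216 of 33469 windows of all genes (3.63%). Windows were held for 38 of the 55 members.

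With the sexes combined, no member passed an adjusted p of 0.05 in limma (0 of 34), where 74 of 13163 transcripts, 0.562%, passed over the whole table. At an unadjusted p under 0.05 there were 5 lower members, Frzb, Wls, Wnt5a, Wnt6 and Lgr4, and 1 higher member, Dkk3. That is 14.7% and 2.94% of the tested members, beside 12% and 5.31% of all tested transcripts (17.3% in either direction). Both BPA libraries lay below both controls in 12 of the 34 members (35.3%, background 31.9%) and above both in 7 (20.6%, background 18.7%). As a set, the tested members thus stood close to the background in both directions. Of the 20 members under the filter that were listed in all 4 libraries, 8 had both BPA libraries below both controls (40%, background 26.7% of 3019 such transcripts, or 28.5% of those with a Gene ID) and 0 above (background 10.3% or 9.25%), and the counts behind them are small. The median log2 ratio of the 34 tested members was -0.06, beside -0.04 for all tested transcripts. When the fit held only transcripts with a Gene ID, 477 of 10632 passed (4.49%), with 403 of them lower (3.79%), and 2 members were among these, Frzb (adjusted p = 0.00391) and Wls (adjusted p = 0.0114).

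**Figure D1:**
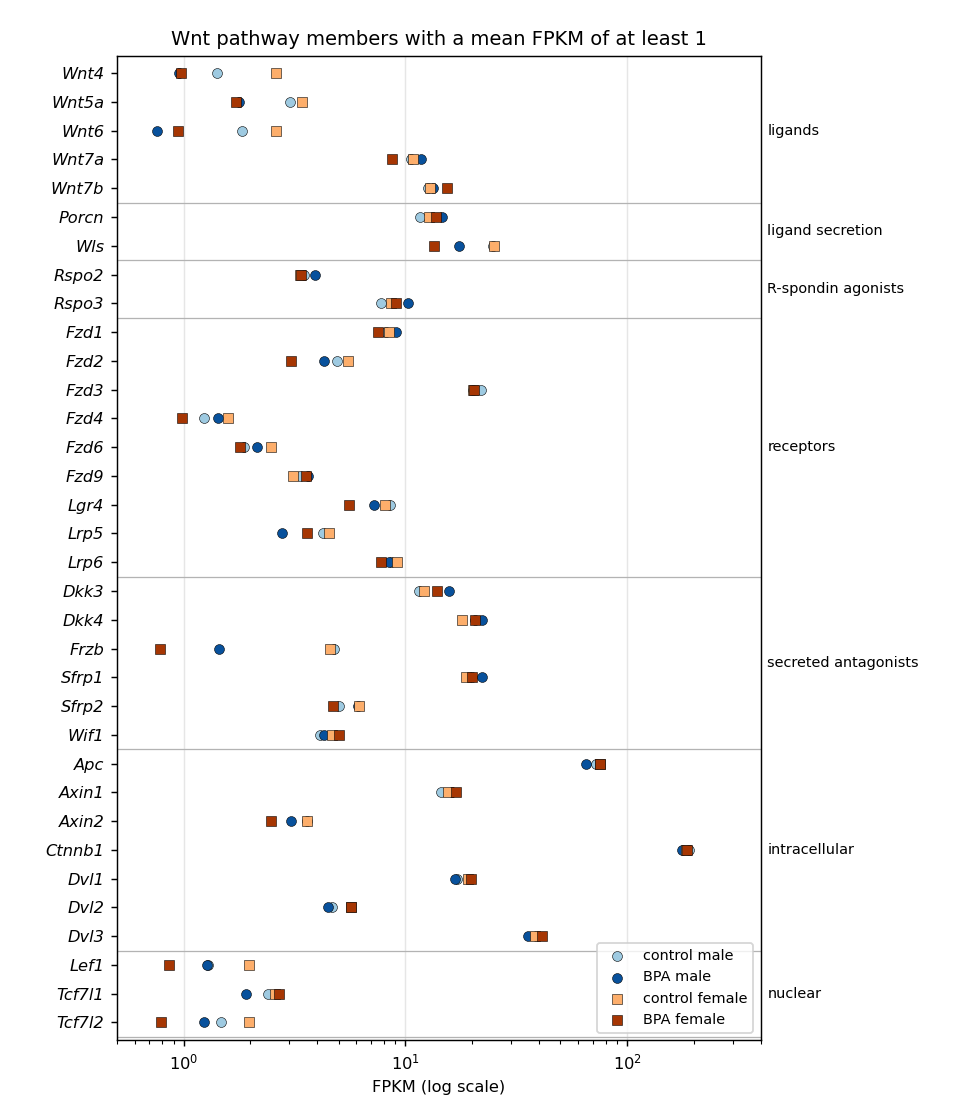
FPKM of the 34 tested members on a log axis, 1 point per library (circles for males, squares for females, dark for BPA), grouped by role. Frzb has both BPA points well to the left of both control points (0.78 and 1.45 against 4.55 and 4.76 FPKM), while Ctnnb1 stands far above all others with its 4 points nearly on top of each other.

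Among the 15 ligands, Wnt7a and Wnt7b, the neural ligands known for driving the growth of brain vessels, were by far the most abundant. Wnt7a stood at 10.61 FPKM in the control male, 11.82 in the BPA male, 10.86 in the control female and 8.72 in the BPA female library. Wnt7b had 12.61, 13.30, 12.88 and 15.47 FPKM in the same order. The paralogs differed in direction in females, where Wnt7a was at 0.803 (0.675 to 0.955) of its control and Wnt7b at 1.20 (1.04 to 1.39). In males, both intervals included 1, with folds of 1.11 (0.951 to 1.31) and 1.06 (0.911 to 1.22). Neither passed the test (adjusted p = 0.824 for Wnt7a and 0.444 for Wnt7b in limma).

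The other 3 tested ligands were all lower with BPA in both sexes without overlap. Wnt5a, the main ligand of the non-canonical branch, was at 3.03 and 3.42 FPKM in the control male and female libraries and at 1.77 and 1.72 FPKM in the BPA ones. Its log2 ratio was -0.73 (SE 0.198, adjusted p = 0.168 in limma), and the fold was 0.584 (0.444 to 0.766) in males and 0.504 (0.382 to 0.660) in females. Wnt6, a ligand of epithelial and mesenchymal development, was at 1.84 and 2.62 FPKM in the control male and female libraries and at 0.76 and 0.94 FPKM in the BPA ones. Its log2 ratio was the largest of the ligands in size, at -1.004 (SE 0.288, adjusted p = 0.184 in limma), with folds of 0.415 (0.206 to 0.794) and 0.360 (0.194 to 0.639). These rest on few fragments, 34 and 14 in males and 47 and 17 in females. Wnt4, known for its part in the development of kidney and gonad, had 1.41 and 0.95 FPKM in the male and 2.62 and 0.97 FPKM in the female pair. Its fold was 0.672 (0.270 to 1.60) in males, an interval that included 1, and 0.369 (0.159 to 0.786) in females. These rest on 15 and 10 fragments in males and 27 and 10 in females. The control libraries of Wnt4 differed more from each other than the BPA libraries did, and its log2 ratio of -0.74 (SE 0.329) had an adjusted p of 0.309 in limma. Without the control female library the log2 ratio of Wnt4 was -0.39.

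The remaining 10 ligands had a mean under 1 FPKM and were not tested. Wnt16 was at 1.28 and 1.05 FPKM in the controls and at 0.61 and 0.21 FPKM with BPA, with 3 fragments in the BPA female library. Wnt9a, at 0.53 and 0.75 FPKM in the controls, was at 0.30 and 0.31 FPKM with BPA. Wnt3 and Wnt5b were also lower in both BPA libraries, at 0.68 and 0.85 FPKM against 0.90 and 0.89 FPKM for Wnt3 and at 0.63 and 0.54 FPKM against 0.79 and 1.14 FPKM for Wnt5b. Wnt2b, Wnt11 and Wnt9b overlapped between treatments. Wnt1, Wnt10a and Wnt10b, with 1 or 2 fragments in each library that listed them, gave no level that could be compared.

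Summed over ligands, the part outside Wnt7a and Wnt7b was the smaller with BPA. The 13 other ligands together had 10.97 FPKM in the control male and 6.40 in the BPA male library, a ratio of 0.583, and 13.80 FPKM in the control female and 6.48 in the BPA female library, a ratio of 0.470. Wnt10a, listed only in the female libraries at 0.05 FPKM, is missing from the male sums. Wnt7a and Wnt7b together had 23.22, 25.12, 23.74 and 24.19 FPKM in the order control male, BPA male, control female, BPA female. They made up 67.9% and 63.2% of the ligand FPKM in the control libraries and 79.7% and 78.9% in the BPA libraries. These are sums of single libraries, without a test.

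**Figure D2:**
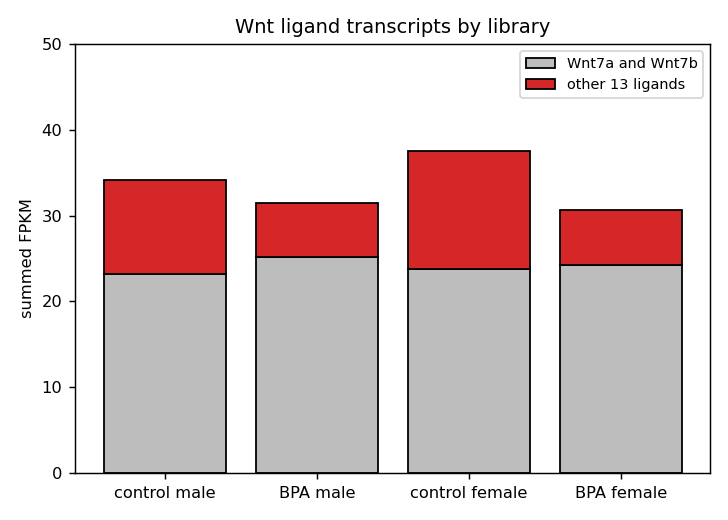
Summed FPKM of the 15 ligands in each of the 4 libraries, as stacked bars from 0, with Wnt7a and Wnt7b in grey and the other 13 ligands in red. Wnt10a is listed only in the female libraries. The grey part stays between 23.22 and 25.12 FPKM, and the red part is 10.97 and 13.80 FPKM in the controls and 6.40 and 6.48 FPKM with BPA.

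The factors of ligand secretion differed in direction. Wls, the carrier that brings every lipid-modified Wnt to the surface, was at 24.83 FPKM in the control male, 17.54 in the BPA male, 25.11 in the control female and 13.50 in the BPA female library. The controls nearly coincided and stood well above both BPA libraries. The log2 ratio was -0.68 (SE 0.127, adjusted p = 0.0864 in limma), with folds of 0.706 (0.622 to 0.801) in males and 0.538 (0.468 to 0.618) in females. These folds rest on 316 to 598 fragments per library. Over the alternatives its adjusted p lay between 0.0114 and 0.330. Porcn, the acyltransferase that lipid-modifies Wnt proteins, was at 11.63 and 12.82 FPKM in the control male and female libraries and at 14.60 and 13.68 FPKM in the BPA ones. Its groups did not overlap, but the log2 ratio of 0.20 (SE 0.0951) had an adjusted p of 0.330 in limma, and the female interval (0.880 to 1.30) included 1.

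Of the R-spondins, which raise Wnt responses through Lgr receptors, Rspo3 was at 7.77, 10.24, 8.62 and 9.04 FPKM in the order control male, BPA male, control female, BPA female, and Rspo2 at 3.49, 3.92, 3.34 and 3.38 FPKM. Both had folds whose intervals included 1 in each sex, and their adjusted p in limma was 0.379 for Rspo3 and 0.829 for Rspo2. Rspo1 was near the limit of detection, with 1 to 5 fragments per library.

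Among the Frizzled receptors, Fzd3, known for axon guidance through planar polarity, was the most abundant, at 21.85, 20.19, 20.23 and 20.50 FPKM in the same order of libraries. Fzd1 followed with 8.18, 9.07, 8.43 and 7.52 FPKM, and Fzd9 had 3.36, 3.62, 3.12 and 3.55 FPKM. In all of these the folds had intervals including 1 in both sexes. Fzd2, a receptor of Wnt5a and other ligands, was at 4.91, 4.29, 5.49 and 3.06 FPKM, with the lowest value in the BPA female library. Its fold was 0.558 (0.388 to 0.795) in females and 0.876 (0.631 to 1.21) in males, and the log2 ratio over both was -0.46 (SE 0.190, adjusted p = 0.289 in limma), or -0.25 without the BPA female library. Fzd4, the receptor of Norrin on brain endothelium, showed 1.24, 1.43, 1.59 and 0.98 FPKM, so that the male and the female pair pointed in opposite directions and the treatments overlapped. Likewise, Fzd6, a receptor of planar polarity, overlapped at 1.88, 2.13, 2.48 and 1.80 FPKM. The female fold was below 1 for Fzd4 (0.616, 0.439 to 0.859), and the adjusted p in limma was 0.796 for Fzd4 and 0.830 for Fzd6.

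For the co-receptors and the R-spondin receptor, both BPA libraries lay below both controls, and no adjusted p passed. Lrp5 was at 4.27 and 4.51 FPKM in the control male and female libraries and at 2.77 and 3.60 FPKM in the BPA ones. The larger difference was in males, 0.647 (0.514 to 0.811) against 0.797 (0.645 to 0.983) in females, and the log2 ratio of -0.42 (SE 0.179) had an adjusted p of 0.300 in limma and was -0.25 without the BPA male library. Lrp6, its paralog, was about as abundant as Fzd1, at 8.63, 8.46, 9.20 and 7.76 FPKM, with a fold of 0.980 (0.881 to 1.09) in males and 0.844 (0.757 to 0.941) in females (adjusted p = 0.574 in limma). Lgr4, the receptor of R-spondins, was at 8.52, 7.19, 8.10 and 5.55 FPKM. Both intervals of Lgr4 lay below 1, at 0.844 (0.731 to 0.975) in males and 0.686 (0.585 to 0.804) in females, with a log2 ratio of -0.37 (SE 0.147, adjusted p = 0.277 in limma), or -0.20 without the BPA female library. Lgr5, its stem cell paralog, had 6 to 11 fragments per library, Fzd5 had 1 to 5, and Fzd10 had 19 to 24 (0.79, 0.66, 0.86 and 0.78 FPKM in the order control male, BPA male, control female, BPA female). All 3 were under the filter and had both BPA libraries below both controls, with 22 against 23 fragments of Fzd10 in the nearest pair.

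Fzd8 appeared under 2 identifiers. The transcript with a Gene ID, of 3012 bases, was at 0.01 and 0.04 FPKM in the male libraries and at 1.27 and 0.66 FPKM in the female ones, which is 0, 1, 34 and 17 fragments. A transcript without a Gene ID, of 7646 bases, annotated by the authors as the rat frizzled-8 precursor, was at 3.22, 2.95, 3.04 and 2.91 FPKM. Whether the authors' estimation shared reads between both was not tested, and the level of Fzd8 by sex is uncertain for that reason. The longer transcript had a log2 ratio of -0.08 (adjusted p = 0.834 in limma).

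The secreted antagonists held the tested member with the largest log2 ratio in size. Frzb (Gene ID 295691, also known as Sfrp3), a decoy that binds Wnt ligands through a Frizzled-like domain, was at 4.76 FPKM in the control male, 1.45 in the BPA male, 4.55 in the control female and 0.78 in the BPA female library. The controls nearly coincided, and both BPA libraries lay far below them. In estimated fragments these were 125, 38, 116 and 20. The fold was 0.306 (0.207 to 0.444) in males and 0.172 (0.101 to 0.278) in females, and the log2 ratio of -1.71 (SE 0.262) had an adjusted p of 0.0645 in limma. Over the alternatives tried, its log2 ratio lay between -2.03 and -1.40 and its adjusted p between 0.00391 and 0.278.

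The other tested antagonists did not share this difference. Dkk3, a divergent member of the Dickkopf family, was at 11.51, 15.79, 12.15 and 13.90 FPKM in the order control male, BPA male, control female, BPA female, higher with BPA in both sexes. Its fold was 1.37 (1.23 to 1.54) in males and 1.14 (1.02 to 1.28) in females, the only member with both intervals above 1, and the log2 ratio of 0.31 (SE 0.0995) had an adjusted p of 0.208 in limma. Sfrp1, made by cortical progenitors, had 19.91, 22.07, 18.83 and 20.07 FPKM (adjusted p = 0.508 in limma). Dkk4 had 20.65, 22.22, 17.97 and 20.61 FPKM, where the controls differed by more than the treatments did in either sex (adjusted p = 0.459 in limma). Together, Sfrp1, Dkk4 and Dkk3 made up 77.0% and 72.7% of the antagonist FPKM in the control male and female libraries and 82.0% and 81.7% in the BPA ones. Sfrp2 pointed in opposite directions, at 5.02 and 6.12 FPKM in males and 6.16 and 4.70 FPKM in females, and Wif1, the Wnt inhibitory factor, was at 4.13, 4.31, 4.66 and 5.01 FPKM. Both of these had intervals including 1 in each sex.

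Of the 6 antagonists under the filter, Dkk2 was the one with both BPA libraries below both controls, at 0.36 and 0.51 FPKM against 0.54 and 1.29 FPKM. Dkk1, a blocker of Lrp6, had 9 fragments in the control female library and 0 or 1 in the others. Notum, an enzyme that removes the lipid from Wnt proteins, was at 0.76, 0.77, 0.68 and 0.73 FPKM. Sfrp4, Sfrp5 and Dkkl1 had at most 8 fragments in any library. A count of 0 allows up to 3 fragments, which on a transcript of 1 kb is between 0.345 and 0.357 FPKM, so levels of this kind were not resolved at this depth.

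**Figure D3:**
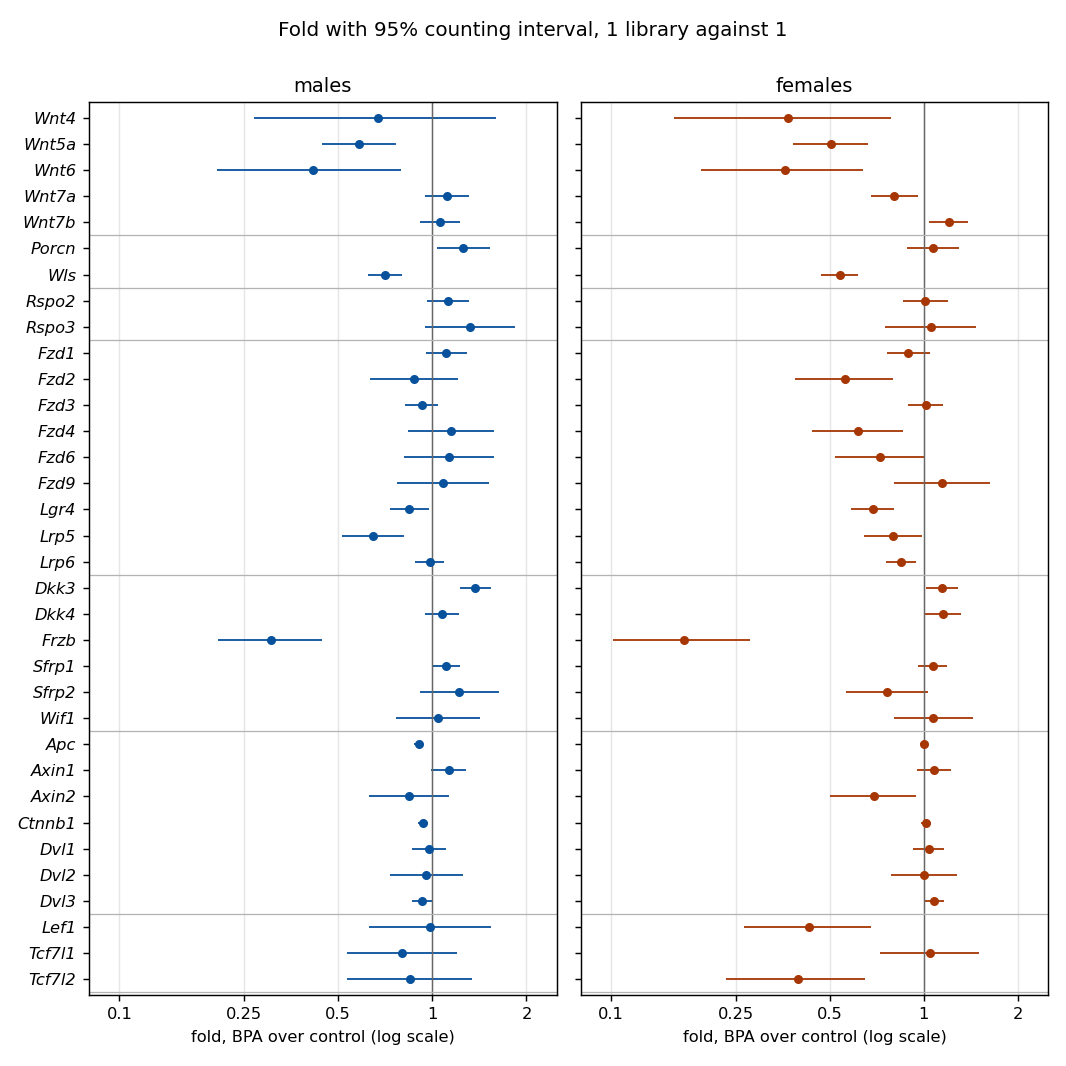
Fold of BPA over control for the 34 tested members on a log axis, males on the left and females on the right, with exact 95% counting intervals from estimated fragments (1 library against 1, no replicate error). Frzb lies farthest from 1 in both panels (0.306 and 0.172), and the intervals of Wnt5a, Wnt6, Wls, Lgr4, Lrp5 and Frzb lie below 1 in both.

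The intracellular members ranged from the most abundant of the set to scarce ones, and 1 of 7 had both BPA libraries below both controls and 1 above. Ctnnb1, beta-catenin itself, was the most abundant member at 190.02, 177.87, 183.67 and 186.25 FPKM in the order control male, BPA male, control female, BPA female. Apc, the scaffold of the destruction complex, had 72.31, 65.36, 75.17 and 75.34 FPKM. At this depth, folds of 0.936 (0.903 to 0.970) for Ctnnb1 and 0.904 (0.876 to 0.933) for Apc in males excluded 1 by counting, while in females both intervals included 1. The log2 ratio over both sexes was -0.04 (SE 0.0573, adjusted p = 0.767 in limma) for Ctnnb1 and -0.07 (SE 0.0814, adjusted p = 0.692) for Apc.

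The Dishevelled genes pass the signal from Frizzled to the destruction complex. Dvl3 led them with 38.69, 35.75, 38.33 and 41.44 FPKM, followed by Dvl1 with 17.14, 16.70, 19.16 and 19.85 FPKM and Dvl2 with 4.69, 4.48, 5.66 and 5.68 FPKM. None of the 3 separated the treatments. Axin1, the limiting scaffold, was at 14.42, 16.29, 15.63 and 16.83 FPKM, higher with BPA in both sexes but with intervals that included 1 (adjusted p = 0.444 in limma).

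Axin2, induced by beta-catenin in many tissues, was at 3.60 and 3.58 FPKM in the control male and female libraries and at 3.04 and 2.47 FPKM in the BPA ones. The controls were nearly equal and both BPA libraries were lower, with a fold of 0.844 (0.629 to 1.13) in males and 0.690 (0.501 to 0.945) in females. Its log2 ratio of -0.33 (SE 0.181) had an adjusted p of 0.387 in limma and was -0.21 without the BPA female library. The promoter of Axin2 is the one shown above that holds the Tcf/Lef core.

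The nuclear factors were scarce, and 2 of 3 were lowest in the BPA female library. Lef1, an activating partner of beta-catenin, was at 1.29, 1.27, 1.98 and 0.86 FPKM in the order control male, BPA male, control female, BPA female, with a fold of 0.984 (0.628 to 1.54) in males and 0.429 (0.265 to 0.678) in females. Tcf7l2, a factor of the thalamus and of forming oligodendrocytes, had 1.48, 1.24, 1.98 and 0.79 FPKM, with folds of 0.847 (0.532 to 1.34) and 0.395 (0.232 to 0.650). The log2 ratio was -0.44 for Lef1 (adjusted p = 0.512 in limma) and -0.56 for Tcf7l2 (adjusted p = 0.390). Without the BPA female library these were -0.25 and -0.35, and Lef1 stood at -0.21 without the control female and -0.68 without the control male library. Tcf7l1, which mainly represses, was at 2.39, 1.91, 2.59 and 2.70 FPKM and overlapped. Tcf7 itself had no transcript with a Gene ID, and a transcript annotated from the mouse protein was at 2.92, 1.94, 3.01 and 2.10 FPKM (log2 ratio -0.46, adjusted p = 0.293 in limma).

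Within each sex, few members passed a log2 ratio of 1 in size. In males it was Frzb alone (-1.43), where 4.28% of 16782 transcripts passed in either direction and 2.53% in the lower one. In females there were 4, Frzb (-1.98), Wnt16 (-1.13), Wnt6 (-1.12) and Wnt4 (-1.09), where 5.15% of 16819 transcripts passed in either direction and 3.51% in the lower one. By counting error alone, 11 of 54 members lay below 1 in males (20.4%, background 18.6%, or 17.2% of transcripts with a Gene ID) and 3 above (5.56%, background 12.2% or 10.5%). In females 19 of 55 members lay below 1 (34.5%, background 20%, or 19.2% with a Gene ID) and 4 above (7.27%, background 11.8% or 9.39%). Of the 34 tested members, 22 had the more negative log2 ratio in females, beside 52.0% of all tested transcripts, and 12 had opposite signs in the sexes. A difference between the sexes could not be tested for lack of replicates within a sex.

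**Figure D4:**
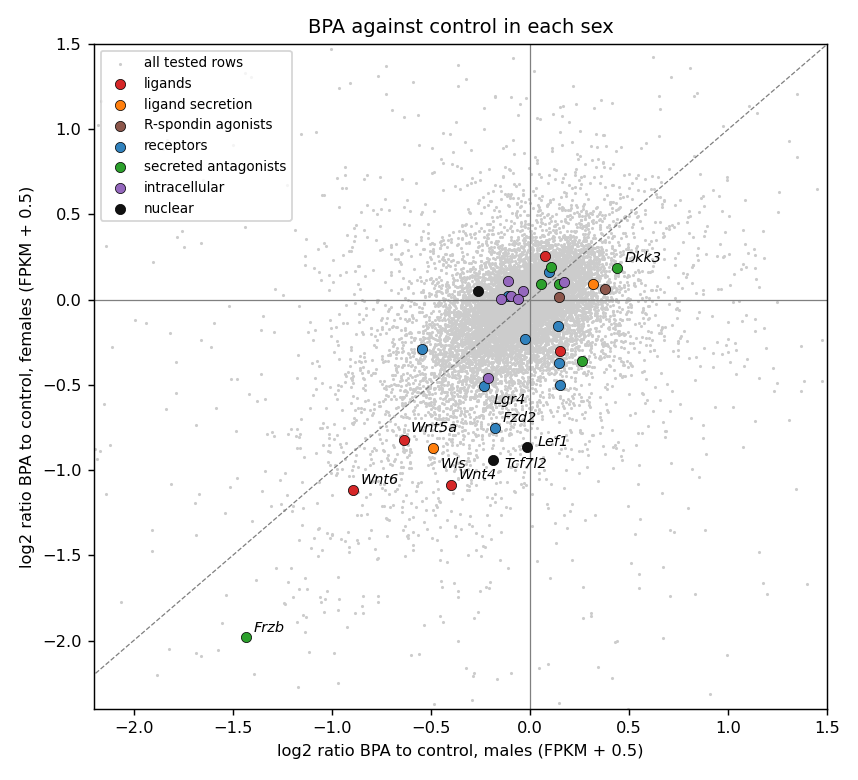
Log2 ratio of BPA to control (FPKM + 0.5) in females against males for the 34 tested members, colored by role, over all 13163 tested transcripts in grey, of which 224 lie outside the axes. The dashed line marks equal ratios, and Frzb (-1.43 and -1.98) stands apart at the lower left, with Wnt4, Wnt5a, Wnt6 and Wls below 0 in both sexes.

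Female and male libraries of one treatment show the spread between libraries that share the treatment. Between the 2 control libraries, 6 of 54 members (11.1%, background 20.2%, or 15.8% of transcripts with a Gene ID) had an interval that excluded 1, namely Fzd8, Dkk1, Dkk2, Dkk4, Apc and Lef1. Between the BPA libraries there were 15 (27.8%, background 22.5% or 18.6%), with Frzb, Wls, Lgr4, Wnt7a, Fzd1, Fzd4 and Dkk3 lower in the female and Wnt7b, Lrp5, Apc, Ctnnb1, Dvl1, Dvl3, Fzd8 and Wnt11 higher. Frzb in females was at 0.960 (0.739 to 1.25) of the male value between the controls and at 0.538 (0.297 to 0.948) between the BPA libraries.

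Other genes of the pathway were taken from a list of 67, of which 55 were listed and 51 tested. In limma, 1 passed lower (background 0.456%) and 0 passed higher (background 0.106%). It was Gpc3, a glypican that binds Wnt and Hedgehog ligands at the cell surface, at 19.60, 9.77, 23.89 and 7.39 FPKM in the order control male, BPA male, control female, BPA female. Its log2 ratio was -1.30 (SE 0.158, adjusted p = 0.0430), and with any library left out its adjusted p lay between 0.104 and 0.223 (0.00106 to 0.223 over all alternatives). At an unadjusted p under 0.05 there were 6 lower genes (11.8% of 51, background 12%) and 9 higher genes (17.6%, background 5.31%), and the median log2 ratio of the 51 was 0.06.

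Of the pathway genes that did not pass, the largest ratios were all negative. Ror1, a receptor of Wnt5a, was at 1.40 and 1.35 FPKM in the control male and female libraries and at 0.75 and 0.51 FPKM in the BPA ones. Reck, which with Adgra2 presents Wnt7 ligands to Frizzled on brain endothelium, was at 4.78 and 5.57 FPKM in the controls and 3.03 and 3.25 FPKM with BPA. Ndp (Norrin), the ligand of Fzd4, had 5.34 and 4.86 FPKM in the controls and 3.74 and 2.86 FPKM with BPA. Their log2 ratios were -0.74, -0.64 and -0.57 with an adjusted p of 0.306, 0.145 and 0.202 in limma. Bmp4 and Ccnd1, often cited as targets, had log2 ratios of -0.48 and -0.41 (adjusted p = 0.473 and 0.188). Of the 8 listed targets, 4 had both BPA libraries below both controls and 2 above. Over all 16182 transcripts listed in the 4 libraries these counts were 5006 and 2770. The 2 higher targets were Sox9 and Tnfrsf19, with log2 ratios of 0.29 and 0.19 (adjusted p = 0.484 and 0.392 in limma).

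Another pair of lists leaned the other way, with no gene passing over the whole table. Of 13 genes of the destruction complex and its kinases, 8 had both BPA libraries above both controls (background 18.7%) and 1 below (background 31.9%), and 4 were higher at an unadjusted p under 0.05 (30.8%, background 5.31%), named after their values were seen as Csnk1d, Csnk1e, Apc2 and Strap. Of 11 nuclear partners, 7 were above and 2 below, with 5 higher at an unadjusted p under 0.05 (45.5%), likewise named as Bcl9l, Pygo2, Tle1, Tle3 and Tle4. Tle4, a Groucho co-repressor that binds the Tcf factors, was at 38.4 and 35.9 FPKM in the controls and 47.1 and 46.4 FPKM with BPA (log2 ratio 0.33, adjusted p = 0.1003 in limma). In the fit limited to transcripts with a Gene ID, Tle3 (adjusted p = 0.0420) and Tle4 (adjusted p = 0.0328) passed higher, and Igfbp4, listed among other inhibitors, passed lower (adjusted p = 0.0427).

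Markers of meninges and vessel wall differed along with the lower members. The list, like the other lists used here, was chosen with earlier results of these data known. Its outcome is therefore not independent of them. All 16 genes of that list were lower in both BPA libraries than in both controls, 9 of 16 fell by the adjusted p in limma (background 0.456%), and the median log2 ratio was -1.45 (-1.16 in males and -1.81 in females). Their summed FPKM was 532.9 in the control male, 241.0 in the BPA male, 687.2 in the control female and 165.7 in the BPA female library, with no marker at 0. Ptgds, a prostaglandin synthase of the arachnoid, contributed 214.0, 109.1, 320.0 and 66.9 FPKM of these sums. The methods of the study state that the meninges were taken off during dissection, yet these markers were present in every library. With any library left out, 0 of the 16 markers passed the test (0 to 6 transcripts in the whole table, at most 1 of them lower), and without a filter or without the trend 0 passed as well. The part of these cells in the lower values of Frzb, Wls, Wnt4, Wnt5a, Wnt6 and Gpc3 was not tested, and in tissue of mixed cells, fewer cells of a type and less RNA per cell cannot be told apart.

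Endothelial markers, which matter for the receptors of Wnt7 and Norrin, summed to 117.8, 102.8, 136.3 and 87.5 FPKM in the order control male, BPA male, control female, BPA female, with 0 of 8 called in limma, 5 lower at an unadjusted p under 0.05 (62.5%, background 12%) and 6 with both BPA libraries below both controls (75%, background 31.9%). Choroid plexus markers were near the limit of detection, with sums of 2.60, 1.74, 3.75 and 1.35 FPKM, no tested marker, and Ttr unlisted in the male libraries and at 0.35 and 0.01 FPKM in the female ones. Of 12 markers of striatum and ganglionic eminence, 1 rose (Rxrg), while 6 were higher (background 5.31%) and 1 lower at an unadjusted p under 0.05 and 8 had both BPA libraries above both controls (background 18.7%). The sums of this list were 114.6, 148.4, 118.7 and 155.3 FPKM. Of 4 listed markers of olfactory bulb projection neurons, Cdhr1 fell from 41.1 and 44.5 FPKM in the control male and female libraries to 10.8 and 9.29 FPKM in the BPA ones. The other tested marker of that list, Reln, had 31.2, 37.0, 40.8 and 37.8 FPKM in the order of libraries above (log2 ratio 0.07, adjusted p = 0.815 in limma), and of the untested ones Tbx21 was at 1.74 and 0.85 FPKM in the controls and at 0.01 and 0.05 FPKM with BPA, and Lhx5 at 0.41 and 0.48 against 0.29 and 0.24 FPKM. Among 8 cortical excitatory markers, Neurod2 rose and Slc17a7 fell. With a library left out, Cdhr1 passed only without a control library, Rxrg only without the control female library, and the cortical calls in no case. None passed in limma among 7 markers of radial glia and astrocytes, 6 of the oligodendrocyte lineage, 4 tested of microglia and 3 of blood. At an unadjusted p under 0.05, 3 of radial glia and astrocytes (42.9%) and 3 of the oligodendrocyte lineage (50%) were lower (background 12%). Microglia and blood had 0. Both BPA libraries lay below both controls in 57.1% and 50% of these glial lists, in that order (background 31.9%). Calls thus fell in 4 of the lists in this fit. With Gene IDs only, where Frzb and Wls also passed (adjusted p = 0.00391 and 0.0114 in limma), calls fell in more lists, with 14 of 16 markers of meninges and vessel wall, 3 of 8 of endothelium (Kdr, Cdh5 and Tek) and Slc1a3 of radial glia lower, and with 4 markers of striatum and ganglionic eminence higher and 1 lower. The part of these cells in the values of the Wnt members was not tested.

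**Figure D5:**
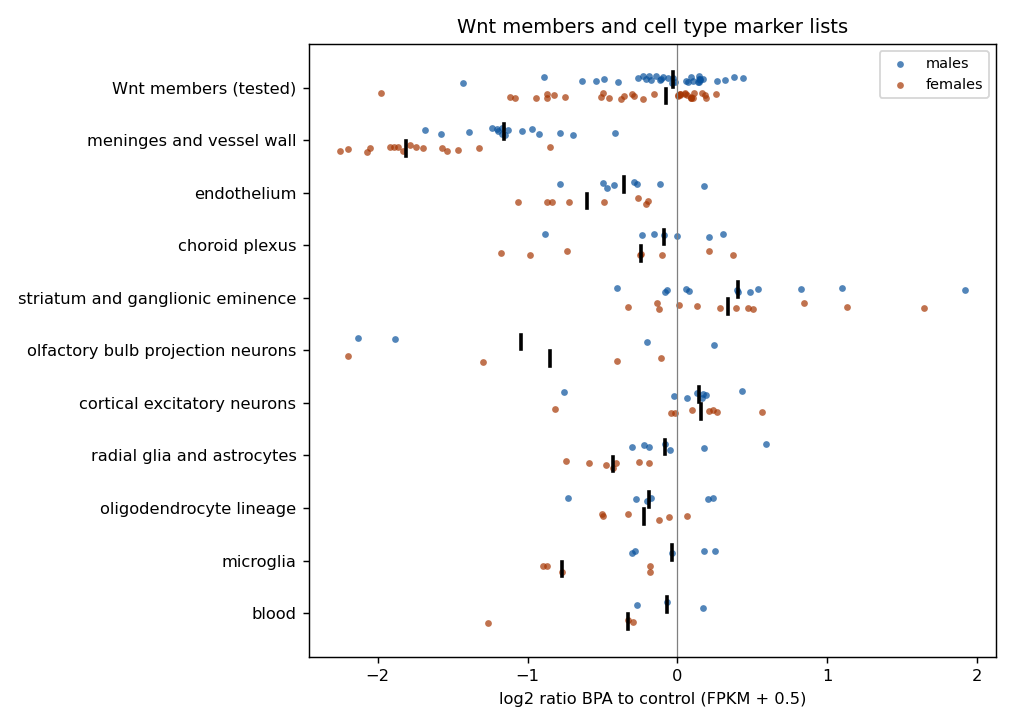
Log2 ratio of BPA to control (FPKM + 0.5) for each gene of the tested Wnt members and of 10 marker lists, males in blue and females in brown, with a black bar at each median. The meninges and vessel wall list lies wholly below 0, with medians of -1.16 in males and -1.81 in females, and the Wnt members spread around 0 with medians of -0.03 and -0.08. The marker lists were chosen with earlier results of these data known.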

How the data were processed

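Polyadenylated RNA of 4 libraries, 1 per sex and treatment, was analyzed. The authors sequenced on an Illumina HiSeq instrument, aligned filtered reads with Bowtie 2 against Rnor_6.0, and used RSEM for expression levels, while the submitters' processing notes also name HISAT. Versions are not given in the sources used here. The deposited values are FPKM with 2 decimals and 0.01 as the lowest value, scaled by the authors to length and depth, beside transcript lengths. The authors' own comparisons used a Poisson test and were not used.

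Members and lists were chosen with earlier results of these data known. Every member with a mean FPKM of at least 1 was named, and scarcer members were grouped. Pathway genes outside the set were named if they passed the test, and otherwise up to 5 with the largest ratios. Further pathway genes were named after their values were seen. They came from the lists that leaned higher, the commonly cited targets and the fit with Gene IDs only. Ratios are of FPKM + 0.5 on the log2 scale, which understates the change of scarce genes, whereas folds with intervals are plain ratios of fragments. Transcripts listed in all 4 files with a mean FPKM of at least 1 were tested with limma 3.58.1 (R 4.3.3), with treatment as the single term and a prior variance that followed the mean, 2 residual degrees of freedom, Benjamini-Hochberg adjustment over 13163 transcripts and a threshold of 0.05. In simulated data for this comparison with 13060 transcripts, limma called 173 of 195 2-fold changes and 7 unchanged transcripts. The simulated spread between libraries was the same for every transcript and held no sex difference. These counts therefore do not give the power in the real libraries.

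Depth was recovered as the number of fragments that brought FPKM times effective length (58 bases under the length) nearest to whole values. Between 87.9% and 89.5% of 1606 to 1709 scarce transcripts per library came within 0.1 of a whole number (20% by chance), and the largest error in simulated libraries was 0.0784%. The precision this gives covers counting error only. Alternatives were another pseudocount, filter, scaling or prior, Gene IDs only, sums per symbol, sex as a replicate block and leaving out each library. Other steps used Python 3.11.15, numpy 2.4.6, pandas 2.3.3, scipy 1.17.1 and matplotlib 3.10.9. Promoters came from RefSeq (GRCr8).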

Additional observations from a re-analysis of the deposited data

Results flagged for a closer look

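Dvl3, which relays the signal from Frizzled to the destruction complex, pointed in opposite directions in the sexes. Its log2 ratio of BPA to control was -0.11 in males, with a fold of 0.925 (0.859 to 0.995), and 0.11 in females, with a fold of 1.08 (1.01 to 1.16), each beyond counting error of 1 library against 1. The difference between the sexes was not tested, since no sex had a replicate.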

How the results depend on the processing

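There were no replicates within a sex, and the sexes were the only replicates of a treatment. The p-values thus rested on the spread between 2 libraries per treatment, moderated toward a prior variance drawn from the other transcripts. It is not known whether a library pooled pups. The methods give 6 litters over both treatments, so the male and female libraries of a treatment may share litters. With the sexes combined, 74 transcripts passed, against 0 with no filter (2628 at an unadjusted p under 0.05), 188 with FPKM of at least 1 in every library, 477 with Gene IDs only and 0 without the trend (2055 at an unadjusted p under 0.05). With sex as a replicate block, 86 passed, and no member was called. The block changed no call of a member. Leaving out a library, where the lone library of a treatment is assumed to vary like the pair of the other, gave 0 to 6 calls, with 3 without control male, 6 without control female and 0 without either BPA library. Members called were 0, but 1 (Wls, adjusted p = 0.0475) with FPKM of at least 1 in every library and 2 (Frzb and Wls) with Gene IDs only, and 0 to 0 on leaving out a library. Gpc3 was no longer called with no filter (adjusted p = 0.152) or without the trend (0.157). In males, 719 transcripts passed a log2 ratio of 1 in size, against 1808 with a pseudocount of 0.1, 397 with a pseudocount of 1 and 405 at a mean FPKM of at least 1, with 5 members in place of 1 at a pseudocount of 0.1. In females there were 867, against 2124, 505 and 529 under the same settings, with 11 members in place of 4 at a pseudocount of 0.1 and 1 at a pseudocount of 1. Of 436 alternative values of tested members, 23 changed sign, none of them called, and each of these had a log2 ratio of at most 0.17 in size. The cause of these shifts was not tested, except that the folds of scarce members depend on the pseudocount by construction.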
